A study of Mus musculus with 12 samples.

Results

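The genes described here are the proteasome subunits and the enzymes that attach or remove ubiquitin in the brains of mice that lack connexin 36. Members were taken by symbol: every gene with one name in the array's probe annotation, a value in all 12 samples, and a symbol beginning with Psma to Psmg, Uba, Ubb, Ube, Usp, Uchl, Cul, Fbx or Rnf. The rule used no measured difference. It gave 174 genes, read by 311 cDNA clones, out of 6427 genes measured, and the annotation names 230 genes of these symbols whether measured or not. They fall into 40 proteasome genes, 22 genes of ubiquitin activation and conjugation, 75 ligase genes, 31 deubiquitinase genes and 6 other ubiquitin-related genes. Whole brains were taken at postnatal day 10 from C57Bl/6j mice that were Gja9 (-/-), called Gja9_null below, from Gja9 (+/-) mice, called Gja9_het, and from wildtype mice, with 4 biological replicates of each genotype. Gja9 is an older symbol of Gjd2, the gene of connexin 36, which forms the electrical synapses between neurons. The annotation holds 0 probes named Gjd2 or Gja9, so the deleted gene could not be checked in these samples. Whole brain RNA mixes all brain cell types, and fewer cells of a type cannot be told apart from less RNA per cell.

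Ubiquitin is a small protein that is linked to other proteins in a relay. An activating enzyme (E1) charges it, a conjugating enzyme (E2) carries it, and a ligase (E3) selects the protein that receives it; cullins are the scaffolds of large ligases in which F-box proteins recognise the substrate, and RING finger proteins bind the charged E2. Chains of ubiquitin send a protein to the proteasome, a barrel-shaped protease (the 20S core, with alpha and beta rings) capped by a regulatory particle (19S) whose ATPases unfold the substrate, while deubiquitinases trim or remove the chains. In neurons the system sets the amount of synaptic proteins and receptors, and human mutations in several of its genes, among them the ligase UBE3A and the deubiquitinase UCHL1, cause neurological disease.

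The promoters of 3 members are given here because these genes had the smallest p-values of the proteasome group (Psmc6 and Psmb6) and of the deubiquitinase group (Uchl5) between Gja9_null and wildtype brains. Those of the ligase and conjugating groups, among them Rnf11 and Ube2e3 with the smallest p there, are not shown. Each stretch runs from 250 bases before to 50 bases after the gene start on the plus strand, from RefSeq on the build GRCm38.p6. Capitals mark the match to TGACNNNGC, the short form of the antioxidant response element, the kind of site through which the factor Nfe2l1 is known to drive proteasome genes. Counted from the gene start, the match begins at position -227 in Psmc6, where it lies on the minus strand, at -9 in Psmb6 and at -34 in Uchl5.
Psmc6, chr14:45329574-45329873: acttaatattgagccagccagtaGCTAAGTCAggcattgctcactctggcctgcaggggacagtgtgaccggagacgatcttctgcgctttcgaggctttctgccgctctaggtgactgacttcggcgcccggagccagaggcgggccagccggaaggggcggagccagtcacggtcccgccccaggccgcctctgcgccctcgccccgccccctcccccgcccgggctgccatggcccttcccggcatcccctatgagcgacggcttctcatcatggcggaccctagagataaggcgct
Psmb6, chr11:70525107-70525406: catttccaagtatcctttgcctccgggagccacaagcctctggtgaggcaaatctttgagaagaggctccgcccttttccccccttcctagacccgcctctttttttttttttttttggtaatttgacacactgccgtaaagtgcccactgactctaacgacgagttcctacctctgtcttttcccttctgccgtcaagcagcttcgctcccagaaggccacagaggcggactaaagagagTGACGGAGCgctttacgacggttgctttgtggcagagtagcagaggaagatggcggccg
Uchl5, chr1:143777028-143777327: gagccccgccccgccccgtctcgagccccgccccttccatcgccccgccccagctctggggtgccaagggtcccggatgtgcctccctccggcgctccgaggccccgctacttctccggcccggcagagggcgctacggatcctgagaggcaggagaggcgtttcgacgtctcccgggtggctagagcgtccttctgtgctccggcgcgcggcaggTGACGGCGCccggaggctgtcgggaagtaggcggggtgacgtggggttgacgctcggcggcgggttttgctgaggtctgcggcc
A promoter was listed for 139 of the 174 members. On either strand TGACNNNGC occurred in 17.65% of the 34 proteasome genes with a promoter, in 17.99% of all members with one, and in 13.99% of the 27025 genes with one in the table. The CCAAT box, counted by its letters CCAAT on either strand, occurred in 33.81% of the members and in 41.06% of all genes. All 3 promoters shown hold a TGACNNNGC match, while most members with a promoter do not, so the 3 are not typical of the members. A match describes these letters only and is not evidence that a factor binds there.

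Each sample was labelled with Cy5 or Cy3 and hybridised beside another sample of its own genotype, so the 12 samples lie on 6 arrays, 2 arrays per genotype. Which samples shared an array was read from the values, not from the labels: samples 1 and 2 of a genotype moved together, as did samples 3 and 4, and these pairs are called its first and second array. Values are log2 signals relative to the sample's own mean. They correlated at 0.986 to 0.991 between the 2 samples of an array, at 0.865 to 0.921 between the arrays of one genotype, and at 0.807 to 0.922 between genotypes. The first Gja9_null array stood apart from the other 5, with a score of 70.4 on a first principal component that held 44.1% of the variance, against -29.8 to 12.3 for the others. Over the members the 2 arrays of a genotype differed by a median of 0.41 log2 units in Gja9_null, 0.24 in Gja9_het and 0.31 in wildtype brains, while the 2 samples of an array differed by 0.12, 0.08 and 0.09. Without it, the difference between Gja9_null and wildtype brains changed sign in 45 of the 174 members, in 31 of them to above 0. Values without it are given beside several of the members below. Where genotypes are said below not to overlap, the samples of each come from only 2 arrays. Many of these members were also named for a small p. Non-overlap then describes the samples and is no separate support, and its share over all features was not counted.

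The first comparison asked what the loss of both gene copies did to these genes. No member passed the threshold between Gja9_null and wildtype brains (limma over 9514 features, array as a random block, Benjamini-Hochberg adjusted p under 0.05), where 31 features, 0.326% of all, did. At an unadjusted p under 0.05, 6 members had higher values in Gja9_null brains, where 2.41% of all features did, and 13 had lower values, where 9.22% did. The median difference was -0.11 log2 units over the members and -0.10 over all features. Below 0 lay 109 of the 174 members and 5606 of the 9514 features. With the 12 samples taken as independent, without the array block, 24 members (13.8%) passed, where 15.4% of all features did. By group the median was -0.01 in the proteasome group, -0.05 in the conjugating group, -0.11 in the ligases and -0.31 in the deubiquitinases.

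**Figure D1:**
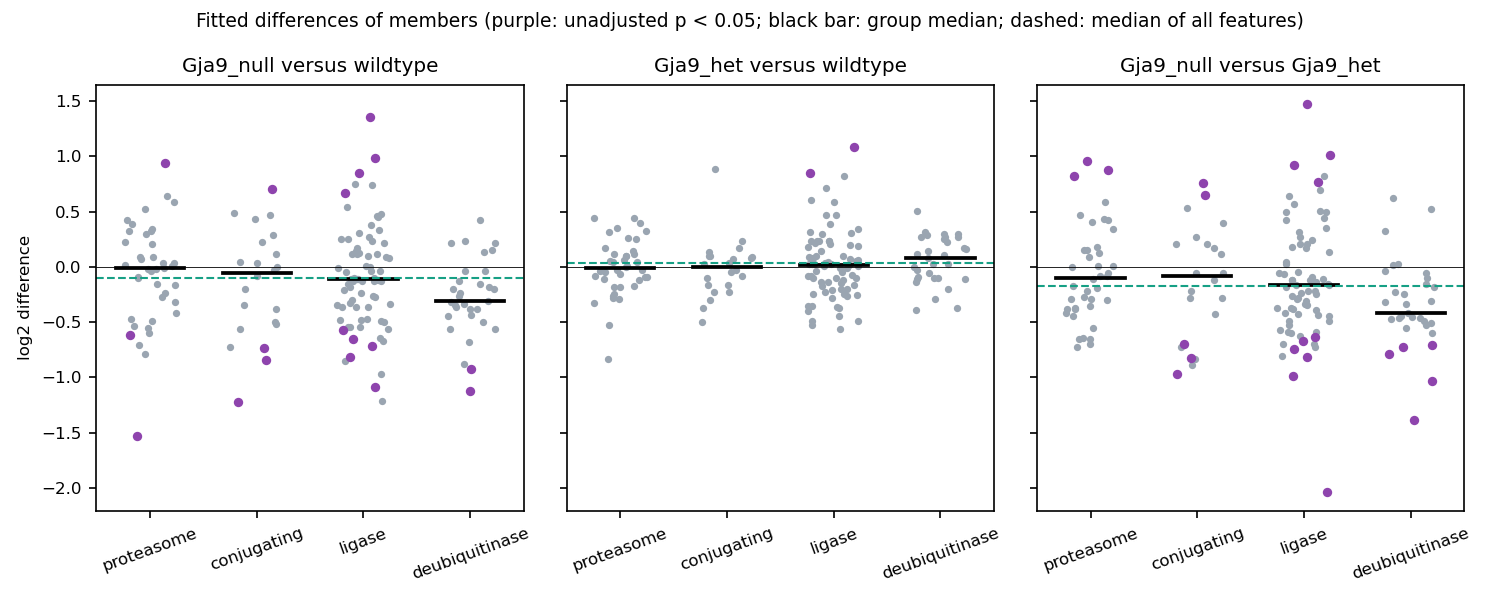
Fitted log2 difference of every proteasome, conjugating, ligase and deubiquitinase member in each comparison, with the group median as a black bar, the median of all features as a dashed line and members at unadjusted p under 0.05 in purple. The deubiquitinase bar lies lowest in both comparisons of Gja9_null brains, at -0.31 against wildtype and -0.42 against Gja9_het, and no point passed the adjusted threshold.

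In the proteasome group 19 of 40 genes had higher and 21 lower values in Gja9_null than in wildtype brains, 1 and 2 of them at an unadjusted p under 0.05. Psmc6 is one of the ATPases that unfold substrates at the base of the regulatory particle. Its log2 signal was -2.21, -2.10, -1.82 and -1.54 in the 4 Gja9_null samples, against -0.69, -0.81, 0.05 and -0.09 in the wildtype samples. All Gja9_null samples lay below all wildtype samples, and both arrays of each genotype kept to their side. The fitted difference was -1.53 ± 0.40 (SE, adjusted p = 0.155 by limma). It was -1.30 without the first Gja9_null array, but -0.34 after local centring, in which the median deviation of the probes within 50 probe numbers on either side was subtracted from each clone. Psmc6 was read by 1 clone.

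Psmb6, the beta subunit with caspase-like activity, went the other way. It had 0.66, 0.73, 0.97 and 1.03 in the Gja9_null samples, against 0.07, 0.12, -0.34 and -0.21 in the wildtype samples. The genotypes did not overlap, and the difference of 0.94 ± 0.38 (adjusted p = 0.363 by limma) was also 0.94 after local centring and 1.09 without the first Gja9_null array. Of the other catalytic beta subunits Psmb5, with chymotrypsin-like activity, differed by 0.07 ± 0.33 as deposited and 0.39 after local centring. Psmb7, with trypsin-like activity, differed by -0.70 ± 0.52 as deposited, but by 0.27 without the first Gja9_null array and 0.13 after local centring. For Psmb7 the 2 Gja9_null arrays disagreed, with -2.10 and -2.34 on the first and -0.25 and -0.32 on the second, against wildtype values from -1.01 to -0.09. Psmb6 and Psmb7 were each read by 1 clone.

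**Figure D2:**
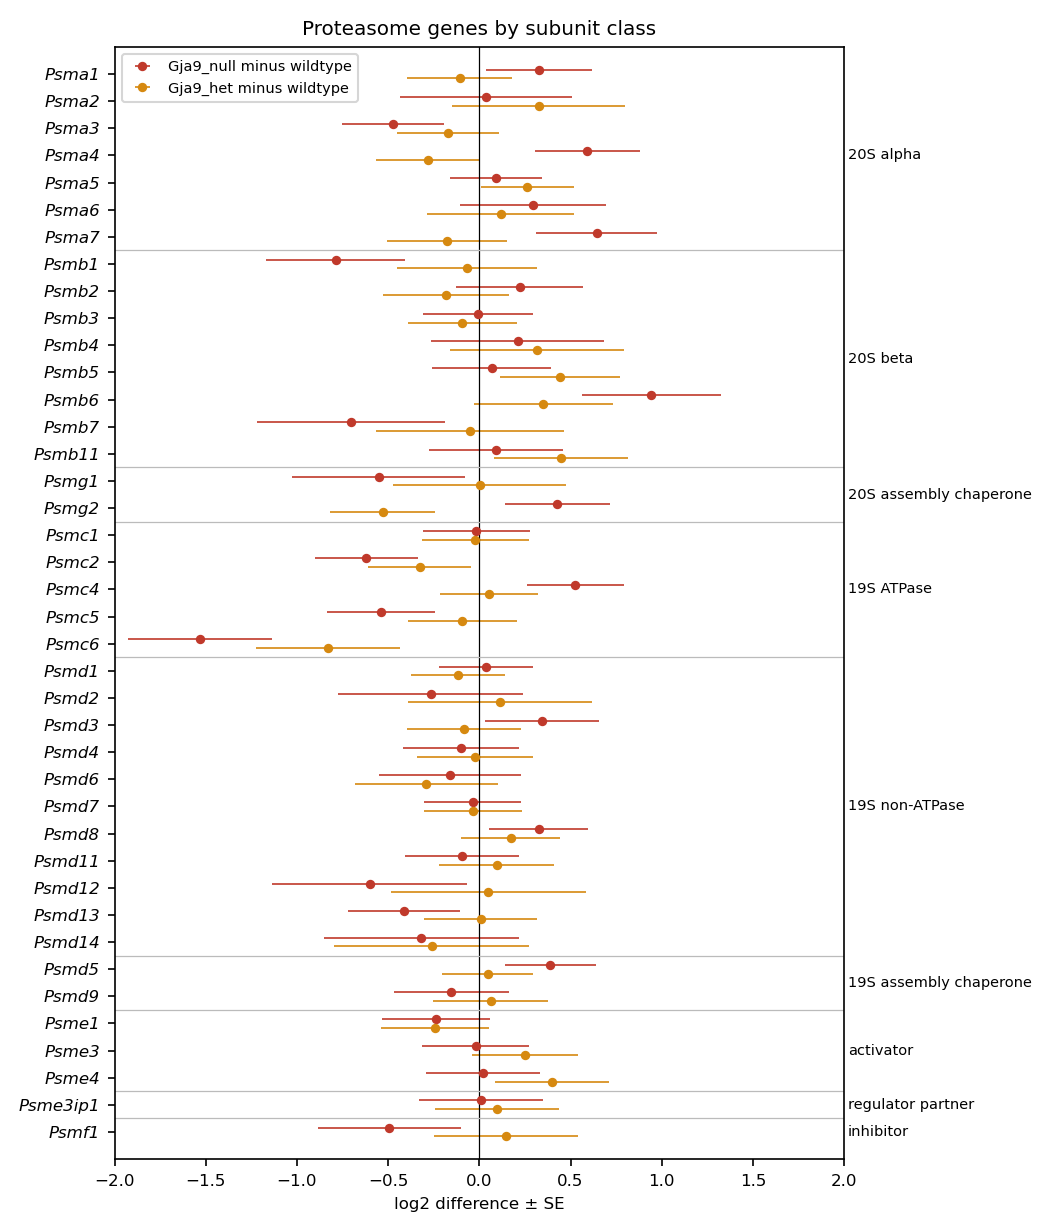
Fitted log2 difference from wildtype, with its standard error, of the 40 proteasome genes by subunit class, Gja9_null in red and Gja9_het in orange. The Gja9_null values of 6 of the 7 alpha subunits lie right of 0, while 4 of the 5 ATPases lie left of it, with Psmc6 at -1.53.

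The alpha ring, which gates entry to the core, had a median difference of 0.29 with 6 of 7 subunits above 0. Psma7, read by 4 clones, had 1.38, 1.36, 1.21 and 1.23 in the Gja9_null samples, against 0.57, 0.44, 0.76 and 0.84 in the wildtype samples. No sample of one genotype lay within the range of the other and all 4 clones gave a positive difference, from 0.40 to 0.76, but the gene's 0.64 ± 0.33 had an adjusted p of 0.482 (limma). Psma4 was alike in size at 0.59 ± 0.29, Psma1 had 0.33 ± 0.29, and Psma3 was below 0 at -0.47 ± 0.28. After local centring all 7 subunits were above 0, with Psma3 at 0.23 and Psma4 at 0.25, and without the first Gja9_null array Psma3 was at -0.18. After local centring the median deviation of the alpha subunits was 0.17 to 0.28 in Gja9_null samples, against -0.19 to -0.11 in wildtype samples. The Gja9_het arrays split there, with -0.30 and -0.44 on the first and 0.11 and 0.17 on the second. As deposited the Gja9_null arrays split, with -0.12 and -0.02 on the first and 0.40 and 0.42 on the second. The wildtype samples then lay from -0.09 to 0.03.

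The 5 ATPases measured had a median of -0.54. Psmc2, read by 3 clones, had -0.58, -0.41, -0.71 and -0.45 in the Gja9_null samples, against 0.12, 0.14, 0.01 and 0.06 in the wildtype samples. All Gja9_null samples lay lower, and its 3 clones differed by -0.28, -0.50 and -1.08, giving -0.62 ± 0.28 for the gene (adjusted p = 0.426 by limma). Psmc5, read by 4 clones, had -0.54 ± 0.30, Psmc1 had -0.02 ± 0.29 and Psmc4 had a positive 0.53 ± 0.27. The 11 other subunits of the regulatory particle ranged from -0.60 to 0.34 with a median of -0.10, 8 of them below 0 and none at an unadjusted p under 0.05. After local centring the median was 0.16, with 8 of the 11 above 0. Among these, the ubiquitin receptor Psmd4 had -0.10 ± 0.32, the scaffold Psmd1 0.04 ± 0.26, the structural subunit Psmd7 -0.04 ± 0.27 and the built-in deubiquitinase Psmd14 -0.32 ± 0.53, which was 0.55 without the first Gja9_null array. Of the remaining proteasome genes, the assembly chaperone Psmg2 had 0.43 ± 0.29 and the inhibitor Psmf1 -0.49. The activator subunit Psme1 had -0.24 ± 0.29 (0.11 without the first Gja9_null array). Psme3ip1, a partner of the activator Psme3, had 0.01 ± 0.34.

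In the conjugating group 9 genes had higher and 13 lower values, 1 and 3 of them at an unadjusted p under 0.05. Ube2e3, an E2 with a long amino-terminal extension, had -1.37, -1.33, -0.25 and -0.02 in the Gja9_null samples, against 0.61, 0.60, 0.35 and 0.36 in the wildtype samples. The genotypes did not overlap, but the 2 Gja9_null arrays lay more than 1 unit apart, and the difference of -1.23 ± 0.36 (adjusted p = 0.206 by limma) was -0.62 without the first of them and -0.44 after local centring. Ube2g2, the E2 of the degradation of misfolded endoplasmic reticulum proteins, was steadier. It had -0.80, -0.82, -0.74 and -0.90 in the Gja9_null samples, against 0.14, 0.09, -0.10 and -0.00 in the wildtype samples. Its difference of -0.85 ± 0.27 (adjusted p = 0.245 by limma) was as large without the first Gja9_null array, -0.85, and -0.48 after local centring.

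Ube2h had higher values in Gja9_null brains, with -0.20, -0.13, -0.28 and -0.23, against -0.82, -0.75, -1.04 and -1.05 in wildtype brains. The genotypes did not overlap and the difference was 0.71 ± 0.29 (adjusted p = 0.373 by limma), 0.48 after local centring. Ube2n, which builds the ubiquitin chains used in signalling, had 0.49 ± 0.26 over 3 clones. Of the broadly acting E2 enzymes Ube2d2a had -0.50 ± 0.29, which was -0.10 without the first Gja9_null array and 0.12 after local centring. Ube2d3 had 0.04 ± 0.27, Ube2l3, a partner of the ligase parkin, 0.04 ± 0.27 and Ube2q1 0.12 ± 0.27. Ube2j1, the membrane-anchored E2 of the endoplasmic reticulum, had -0.56 ± 0.31 as deposited and 0.20 after local centring. Both E1 enzymes measured had negative differences, the ubiquitin E1 Uba6 of -0.73 ± 0.34 and Uba7, the E1 of the ubiquitin-like protein Isg15, of -0.51. After local centring Uba6 was at -0.32 and Uba7 at 0.04.

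Among the 75 ligases 28 had higher and 47 lower values in Gja9_null brains, 4 and 5 of them at an unadjusted p under 0.05. Rnf11, a RING protein known as part of the complex that restrains NF-kappaB signalling, had the largest positive difference of all members. It had 0.61, 0.57, 0.67 and 0.36 in the Gja9_null samples and 0.08, -0.11, 0.10 and 0.11 in the Gja9_het samples, against -1.23, -1.29, -0.23 and -0.45 in the wildtype samples. The 3 genotypes did not overlap, in the order Gja9_null, Gja9_het, wildtype, and the first wildtype array averaged -1.26 and the second -0.34. The difference between Gja9_null and wildtype brains was 1.35 ± 0.35 (adjusted p = 0.15 by limma), 1.31 without the first Gja9_null array and 0.98 after local centring. Rnf11 was read by 1 clone.

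**Figure D3:**
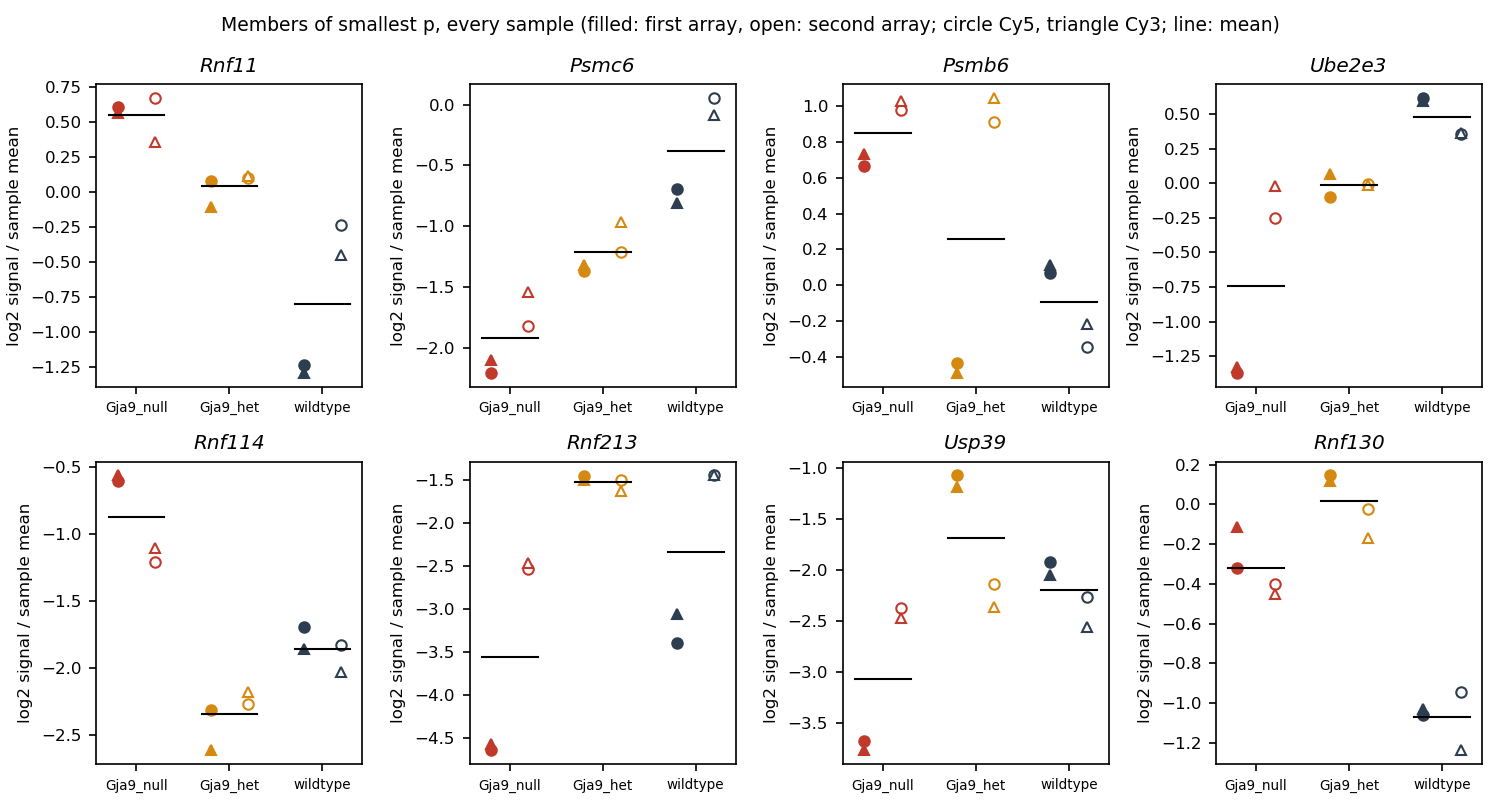
Log2 signal of 8 members in each of the 12 samples, with its own vertical axis per gene, the first array of a genotype as filled and the second as open symbols, Cy5 as circles, Cy3 as triangles and the group mean as a line. The 4 Gja9_null samples of Rnf11 lie between 0.36 and 0.67, above all other samples. The arrays of one genotype lie apart for several genes. Among them are Ube2e3, Rnf213 and Usp39 in Gja9_null, Psmb6 and Usp39 in Gja9_het, and Rnf11, Psmc6 and Rnf213 in wildtype brains.

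Rnf187, a RING protein described as a coactivator of the factor AP-1, was similar on both Gja9_null arrays. It had 2.11, 1.90, 1.83 and 1.74 in the Gja9_null samples, against 1.08, 1.14, 0.95 and 1.01 in the wildtype samples, with no overlap and a difference of 0.85 ± 0.29 (adjusted p = 0.283 by limma). Rnf114 had 0.99 ± 0.37 and Fbxl17, an F-box protein that removes wrongly paired BTB proteins, 0.67 ± 0.27, also without overlap. These 4 ligases kept at least 0.44 after local centring.

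Of the ligases with lower values, Cul2, the scaffold of the Vhl ligase, had -1.92, -1.67, -1.32 and -0.92 in the Gja9_null samples, against -0.47, -0.22, -0.47 and -0.33 in the wildtype samples. The genotypes did not overlap and the difference was -1.08 ± 0.35 (adjusted p = 0.25 by limma), but -0.24 after local centring. Rnf2, the subunit of Polycomb complex 1 that ubiquitinates histone H2A, was read by 4 clones and had -2.74, -2.75, -2.67 and -2.52, against -1.97, -1.91, -1.89 and -2.04 in wildtype brains. Its gene mean of -0.72 ± 0.28 (adjusted p = 0.345 by limma) came from clones that differed by 0.05, -0.32, -1.09 and -1.51, and it was -0.36 after local centring. Rnf44 had -0.65 ± 0.27, Rnf141 -0.82 ± 0.34 and Rnf34, known to act on caspases, -0.57 ± 0.25, and after local centring these were -0.05, -0.28 and -0.35. The 2 clones of Rnf44 gave 0.27 and -1.57 as deposited.

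Of the other cullins Cul7, the partner of Fbxw8, had the highest difference, 0.38 ± 0.28. The SCF scaffold Cul1 had -0.04 ± 0.37, Cul3, which binds BTB adaptors, -0.12 ± 0.29, Cul4b -0.30 ± 0.62 and Cul5, the partner of SOCS-box proteins, 0.25 ± 0.29. The F-box proteins Fbxw11, a receptor for phosphorylated substrates, Fbxw8 and Fbxl5, the iron-sensing one, had -0.05 ± 0.32, -0.11 ± 0.26 and 0.21 ± 0.31. Clones of one gene went opposite ways in several of these. Among them were Cul5 (-0.01, -0.32 and 1.09), Fbxw11 (0.75 and -0.85) and Fbxw8 (0.10, 0.41 and -0.85). Ube3a, the ligase lost in Angelman syndrome, differed by -0.12 ± 0.38, and the chain-extending U-box ligase Ube4b by 0.27 ± 0.42. The histone H2B ligase Rnf20 and the RING ligases Rnf14, Rnf167 and Rnf181, read by 3 or 4 clones each, lay between -0.34 and 0.12.

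The deubiquitinases had 25 of 31 genes below 0, where 5606 of the 9514 features were. At an unadjusted p under 0.05, 2 were below 0, where 9.22% of all features were, and none above 0. The 28 ubiquitin-specific proteases alone had 24 below 0 and a median of -0.31. The median deviation of the 31 genes from their own means was -0.38, -0.19, -0.12 and -0.12 in the Gja9_null samples and 0.16, 0.26, 0.09 and 0.11 in the Gja9_het samples, against 0.20, 0.27, -0.01 and -0.01 in the wildtype samples. In the deposited values all Gja9_null samples lay below all others. The gap from Gja9_null samples to the others was smallest between the second arrays of Gja9_null and wildtype brains. The median of all features moved the same way by less, with -0.10, -0.10, -0.03 and -0.04 in the Gja9_null samples, against 0.05, 0.02, 0.09 and 0.03 in the wildtype samples. After local centring the genotypes overlapped, with -0.19, 0.01, -0.13 and -0.00 in the Gja9_null samples and 0.01 to 0.09 in the Gja9_het samples, against -0.01 to 0.11 in the wildtype samples. The median difference from wildtype was then -0.14 with 23 of 31 below 0, and, as deposited but without the first Gja9_null array, -0.21 with 21 of 31 below 0. The matching counts over all features under these settings are not given here. No test was made of the group as a whole.

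**Figure D4:**
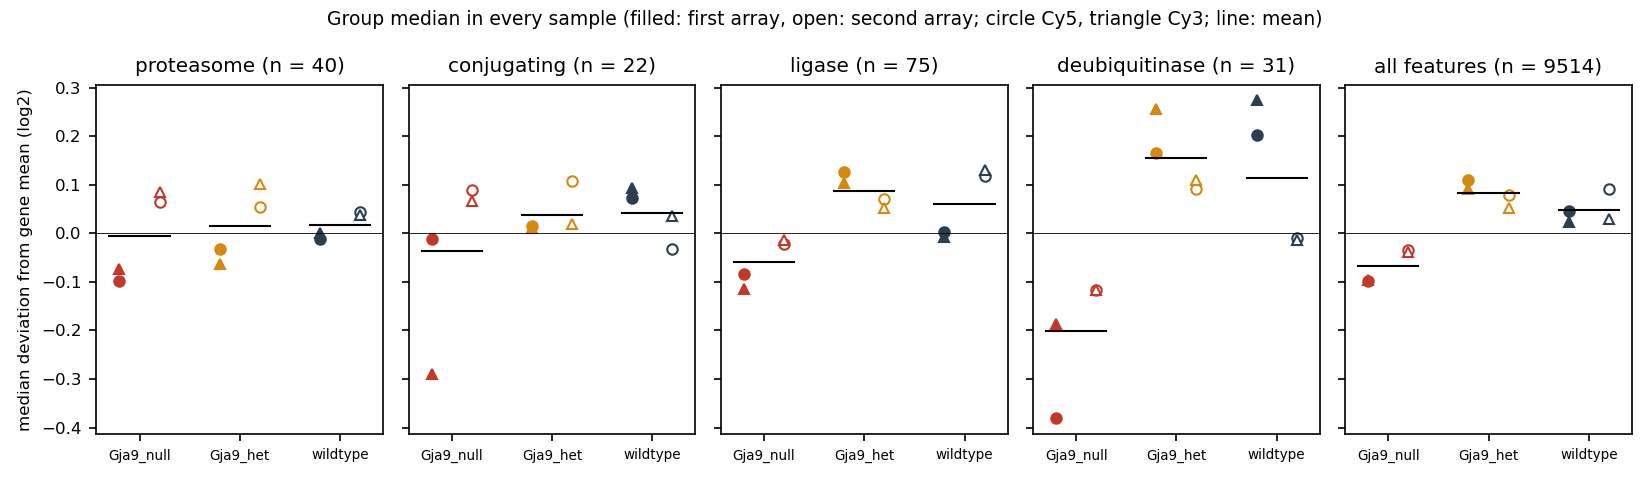
Median over the genes of each group of the deviation from the gene's own mean, in every sample, with arrays and dyes marked as filled, open, circle and triangle and the genotype mean as a line. The deubiquitinase values of the 4 Gja9_null samples, -0.38 to -0.12, lie below all other samples in these deposited values, though not after local centring, while in the proteasome panel the 2 Gja9_null arrays lie on either side of 0.

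Uchl5, a deubiquitinase that docks on the regulatory particle, had -3.37, -3.54, -2.17 and -2.02 in the Gja9_null samples, against -1.57, -1.50, -1.86 and -1.67 in the wildtype samples. The ranges were apart, but the first Gja9_null array lay far below the second, and the difference of -1.12 ± 0.43 (adjusted p = 0.330 by limma) was -0.44 without it and -0.37 after local centring. Usp12, which acts with the cofactor Wdr48, had -0.38, -0.47, -0.82 and -0.66, against 0.34, 0.34, -0.09 and -0.22 in wildtype brains, with no overlap. Its difference of -0.68 ± 0.32 (adjusted p = 0.448 by limma) was -0.83 without the first Gja9_null array and -0.52 after local centring. Usp54 had -0.92 ± 0.39, but -0.28 without that array. Uchl1, the abundant neuronal ubiquitin hydrolase, was read by 3 clones and had 1.23, 1.17, 0.95 and 0.78, against 0.63, 0.82, 0.96 and 1.11 in wildtype brains, which overlapped. Its difference was 0.15 ± 0.36, and that of its relative Uchl3 was 0.42 ± 0.37. The ubiquitin-specific proteases read by 3 or more clones lay between -0.56 and 0.14: Usp7, which stabilises the p53 ligase Mdm2, had -0.24 ± 0.32, Usp9x -0.20 ± 0.40, Usp15 -0.35 ± 0.35, Usp24 -0.43 ± 0.36, Usp32 -0.18 ± 0.42, Usp38 -0.20 ± 0.32, Usp47 -0.56 ± 0.34 (-0.21 without the first Gja9_null array and 0.03 after local centring) and Usp22, of the histone-modifying SAGA complex, 0.14 ± 0.35.

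The 6 other ubiquitin-related genes had differences from -0.76 to 0.41. Ubap2l, a stress granule protein read by 3 clones, had 0.41 ± 0.31. Ubap1, a subunit of the ESCRT-I sorting complex that was named after its value was seen, had the lowest, -0.76 ± 0.33, and -0.21 without the first Gja9_null array.

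The second comparison set Gja9_null against Gja9_het brains, which carry one copy of the gene. Again no member passed the adjusted threshold, where 26 features, 0.273% of all, did. At an unadjusted p under 0.05, 9 members had higher values in Gja9_null brains, where 3.64% of all features did, and 14 had lower values, where 11.3% did. Group medians were -0.10 for the proteasome, -0.09 for conjugating enzymes, -0.16 for ligases and -0.42 for deubiquitinases, against -0.17 for all features. This comparison and the first use the same Gja9_null samples.

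Rnf114, a RING ligase known from innate immune signalling, had the smallest p. It had -0.60, -0.56, -1.21 and -1.11 in the Gja9_null samples, against -2.31, -2.62, -2.27 and -2.18 in the Gja9_het samples. All Gja9_null samples lay higher, with a difference of 1.48 ± 0.37 (adjusted p = 0.105 by limma) that was 1.19 without the first Gja9_null array. After local centring it was 1.07 and passed the threshold, with an adjusted p of 0.036, in a fit where 1.41% of all features passed. With local centring and array means together it did not pass (adjusted p = 0.175). Rnf166, named after its value was seen, also passed under local centring, at 1.63 (adjusted p = 0.0271), but had 0.64 ± 0.47 in the deposited values.

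Rnf213, a very large RING ligase whose human gene is linked to moyamoya disease, had the largest negative difference of all members. It had -4.64, -4.58, -2.54 and -2.47 in the Gja9_null samples, against -1.46, -1.50, -1.50 and -1.63 in the Gja9_het samples. The Gja9_het samples lay close together and the Gja9_null arrays far apart. The difference of -2.03 ± 0.61 (adjusted p = 0.156 by limma) was -2.25 after local centring and -0.98 without the first Gja9_null array. The wildtype arrays split as well, with -3.40 and -3.07 on the first and -1.45 on both samples of the second.

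In the proteasome group 3 genes had higher values at an unadjusted p under 0.05 and none lower. Psmg2, a chaperone that assembles the alpha ring, had 0.16, -0.08, 0.08 and 0.00 in the Gja9_null samples, against -0.91, -0.99, -0.86 and -0.89 in the Gja9_het samples. The ranges were apart and the arrays of each genotype agreed closely, with a difference of 0.95 ± 0.29 (adjusted p = 0.157 by limma) that was 0.37 after local centring. The other 2 were alpha subunits, Psma4 with 0.87 ± 0.29 and Psma7 with 0.82 ± 0.33. For Psma7 the Gja9_het arrays split, with -0.04 and -0.08 on the first and 1.01 on both samples of the second.

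Among conjugating enzymes Ube2g2 had -0.82 ± 0.27 against Gja9_het brains, whose 4 values lay between 0.00 and 0.02, and Ube2h had 0.76 ± 0.29. Ube2n had 0.65 ± 0.26, and Ube2j1 had -0.70 ± 0.31 as deposited but -0.01 after local centring. Uba6, the E1 that also charges the ubiquitin-like Fat10, had -3.05, -2.79, -3.12 and -2.89 in the Gja9_null samples, against -2.04, -2.03, -1.94 and -1.96 in the Gja9_het samples. The genotypes did not overlap and the difference was -0.97 ± 0.34 (adjusted p = 0.212 by limma), but its 3 clones gave 0.25, -1.21 and -1.95, and with its brightest clone alone it turned to 0.25.

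The deubiquitinases had 26 of 31 genes below 0, where the median over all features was below 0 as well. At an unadjusted p under 0.05, 5 were below 0, where 11.3% of all features were, and none above 0. Usp39, a spliceosome protein of this family without protease activity, had -3.68, -3.77, -2.38 and -2.47 in the Gja9_null samples, against -1.07, -1.19, -2.13 and -2.36 in the Gja9_het samples. The ranges only just cleared each other, and the difference of -1.38 ± 0.42 (adjusted p = 0.159 by limma) was -0.73 without the first Gja9_null array and -0.74 after local centring. The other 4 were Uchl5 with -1.03 ± 0.43, Usp12 with -0.79 ± 0.32 and, named after their values were seen, Usp33 with -0.73 ± 0.33 and Usp10 with -0.71 ± 0.33. Usp10 was lower still without the first Gja9_null array, at -1.11. The ligases Fbxl17, Rnf187, Cul2, Rnf2, Rnf141 and Rnf44 had 0.93, 0.77, -0.98, -0.74, -0.81 and -0.64 in the deposited values. After local centring the first 2 had 0.50 and 0.77, and Cul2, Rnf2, Rnf141 and Rnf44 had -0.20, -0.22, -0.21 and -0.12. Fbxo28 with 1.01 and Rnf103 with -0.67, both named after their values were seen, complete the ligases at that level.

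The third comparison asked what the loss of one gene copy did. No member and no feature passed the adjusted threshold between Gja9_het and wildtype brains (0 of 9514, 0%, limma). At an unadjusted p under 0.05, 2 members had higher values in Gja9_het brains, where 1.67% of all features did, and 0 had lower values, where 0.515% did. Both were RING ligases read by 1 clone. Rnf130, known as the Goliath homologue, had 0.15, 0.12, -0.02 and -0.17 in the Gja9_het samples, against -1.06, -1.03, -0.95 and -1.24 in the wildtype samples. The 2 genotypes did not overlap and both arrays of each lay close together, with a difference of 1.09 ± 0.35 (adjusted p = 1 by limma), 0.99 after local centring. The Gja9_null samples, with -0.32, -0.11, -0.40 and -0.45, also lay above wildtype, by 0.75 ± 0.35. Rnf11, the second, had 0.85 ± 0.35 in Gja9_het brains and its values are given above.

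Group medians were -0.01 for the proteasome, -0.00 for conjugating enzymes, 0.02 for ligases and 0.08 for deubiquitinases and -0.14 for the 6 other genes, against 0.03 for all features. Psmc6 had the lowest difference of all members here too, -0.83 ± 0.40, with -1.36, -1.32, -1.21 and -0.96 in the Gja9_het samples, so that in the deposited values its 3 genotypes did not overlap, in the order Gja9_null, Gja9_het, wildtype from low to high. That order did not hold after local centring, where Gja9_het was lowest: its difference from wildtype was -0.73 and that of Gja9_null -0.34. Psmg2 had -0.53 ± 0.29, Psmb5 0.44 ± 0.33, Ube2q2 0.89 ± 0.66, Ube2e3 -0.50 ± 0.36, the anaphase complex's E2 Ube2s -0.37 ± 0.25 and Fbxl6 0.47 ± 0.28. Of the deubiquitinases Usp39 had 0.51 ± 0.42, Usp28 -0.39 ± 0.31 and Usp3, which acts on histone H2A, 0.32 ± 0.30. In a test of any difference among the 3 genotypes (limma's moderated F-test) no member passed, where 0.326% of all features did, and 19 of 174 members had an unadjusted p under 0.05, where 10.9% of all features did. The 19 are also 10.9% of the members.

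Separate clones of one gene were compared by the sign and size of their fitted differences. Of the 174 members 84 were read by at least 2 clones, and all clones had the same sign in 38 of these between Gja9_null and wildtype brains, in 35 between Gja9_null and Gja9_het brains and in 35 between Gja9_het and wildtype brains. The median range between clones of a gene was 0.57, 0.67 and 0.37 log2 units in that order of comparisons. Rnf141 had the widest range in the first, with clones at -1.83, -0.87 and 0.25. Ube2d2a, a broadly acting E2, had it in the second, from -1.98 to 0.44 over 4 clones, so that its gene mean of -0.28 ± 0.29 describes no single clone. Psma5 had it in the third, with -0.56 and 1.08, and Fbxo11 is among the members whose clones disagreed most there.

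The differences were also set beside the clones' place in the probe numbering. When the 28704 probes were cut into 48 stretches of 598 probe numbers, 27 of the 311 member clones (8.68%) lay in the last 3 stretches, which hold 7.02% of all probes with values. Of all 174 members 24 had a clone there. Among the 13 members with lower values in Gja9_null than in wildtype brains at an unadjusted p under 0.05, 4 did. Among the 6 with higher values 0 did. The same count was not made over all features with lower values. Both low clones of Rnf141 and the lowest clones of Rnf2 and Ube2d2a lay there. The only clones of Psmc6 and Cul2 did not, and local centring moved them from -1.53 to -0.34 and from -1.08 to -0.24. Local centring changed the sign of the difference between Gja9_null and wildtype brains in 44 of the 174 members, in 37 of them to above 0. It moved the median Gja9_null difference from wildtype to 0.13 in the proteasome group, 0.12 in the conjugating group, 0.03 in the ligases and -0.14 in the deubiquitinases, against -0.01 over all features. The part of probe position in the members' differences was not tested.

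**Figure D5:**
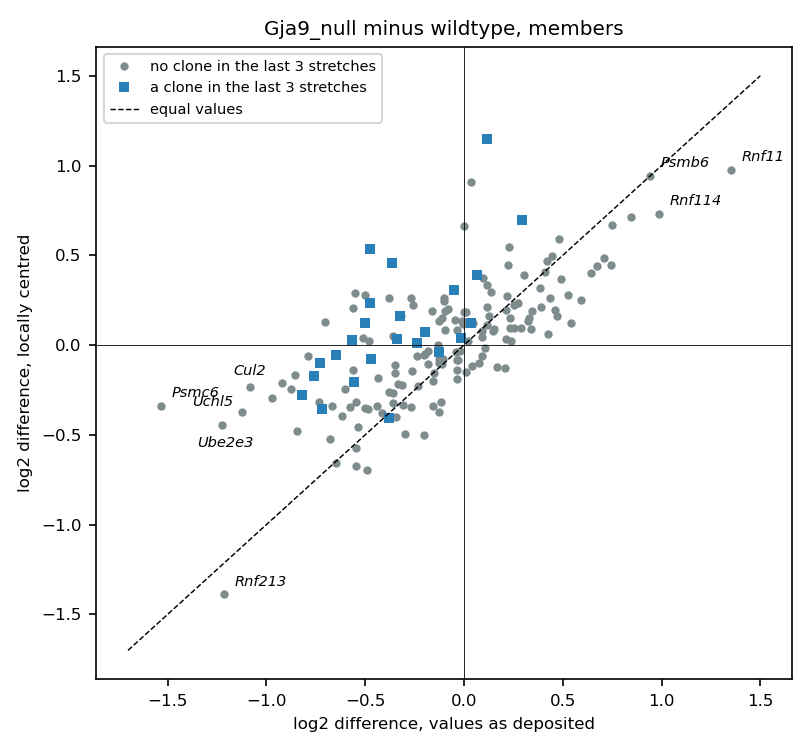
Difference between Gja9_null and wildtype brains of the 174 members after local centring, on the vertical axis, against the difference in the deposited values, on the horizontal axis, both in log2 units, with members that have a clone in the last 3 stretches as squares. Psmc6 moves to -0.34 by local centring, against -1.53 as deposited, and lies far above the line of equal values, while Psmb6 stays at 0.94 and Rnf11 moves to 0.98, against 1.35 as deposited.

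Genes of the same pathway outside the symbol rule were taken from a list of 135, of which 87 were measured. No gene of that list passed the adjusted threshold in any comparison. Between Gja9_null and wildtype brains 1 of the 87 had a higher value and 10 had lower values at an unadjusted p under 0.05, where 2.41% and 9.22% of all features did, with a median of -0.10. The 3 of smallest p were the proteasome-binding scaffold Ecpas with -0.94 ± 0.28, the histone-reading ligase Uhrf1 with -1.34 ± 0.42 and the COP9 signalosome subunit Cops3 with 1.03 ± 0.33. Uhrf1 was -0.04 after local centring, while Ecpas was -0.47 and Cops3 0.74. Between Gja9_null and Gja9_het brains 3 had higher and 7 lower values, where 3.64% and 11.3% of all features did, with a median of -0.14. Rad23b, a shuttle that carries ubiquitinated proteins to the proteasome, had 0.81, 0.71, 0.67 and 0.71 in the Gja9_null samples, against -0.43, -0.36, -0.44 and -0.33 in the Gja9_het samples. These did not overlap, with a difference of 1.11 ± 0.28 (adjusted p = 0.095 by limma). Ecpas had -0.98 ± 0.28 and the ligase Ubr1, which reads destabilising amino-terminal residues, -1.09 ± 0.34. Between Gja9_het and wildtype brains 0 had higher and 1 had lower values, where 1.67% and 0.515% of all features did, Rad23b with -0.65 ± 0.28, followed by the ligases' genes Trip12 with 0.59 ± 0.35 and Fzr1 with 0.50 ± 0.30.

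Of 47 markers of brain and blood cells 21 were measured and none passed the adjusted threshold. The neuronal markers Map2, Nefl and Tubb3 lay above the sample mean in every sample, as did the myelin gene Mbp. The other 2 neuronal markers measured, Nefm and Syt1, were below it on the first Gja9_null array, Nefm at -1.14 and -0.69 and Syt1 at -1.40 and -1.13, and differed by -1.74 ± 0.53 and -0.77 ± 0.58 between Gja9_null and wildtype brains. The summed linear signal of the 5 astrocyte markers measured was 13.9 to 16.5 times the sample mean in Gja9_null brains and 9.35 to 11.96 in Gja9_het brains, against 8.89 to 12.2 in wildtype brains, and that of the 5 neuronal markers was 13.9 to 24.7 and 20.2 to 24.3, against 19.4 to 24.3. The astrocyte sums of Gja9_null brains did not overlap the others, but the 5 markers did not move together: Fabp7, Slc1a3 and Glul differed from wildtype by 1.66 ± 0.67, 0.90 ± 0.31 and 0.36 ± 0.34, and Gja1 and Aldoc by -0.18 ± 0.41 and -0.24 ± 0.31. Fabp7 also differed by 1.76 ± 0.67 between Gja9_het and wildtype brains. Its wildtype arrays split, with -1.365 and -1.121 on the first and 1.648 and 1.789 on the second. That second array lay within the Gja9_null range, 1.378 to 2.357, and the Gja9_het range, 1.615 to 2.418. Both Fabp7 differences thus rest on the first wildtype array. The erythroid gene Alas2 had the smallest p of the 21 between Gja9_null and wildtype brains. Its difference was -1.45 ± 0.34 as deposited and -0.20 after local centring. The erythroid genes Hba-a2 and Hbb-b1 differed by 0.17 ± 0.54 and 0.39 ± 0.41 there, and the myelin genes Mbp and Cnp by -0.64 ± 0.92 and -0.69 ± 0.70. The part of these shifts in the members' differences was not tested.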

How the data were processed

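Total RNA of 12 mouse brains was labelled with Cy3 or Cy5 and hybridised to spotted cDNA arrays, per the labels' protocols. The authors deposited log2 values; once unlogged, each sample's values average 1, so they are relative to its mean signal. The sources used here give no background or dye correction. Of 28704 probes 13443 had a value in all 12 samples, and 10356 of these named 1 gene, 560 several and 2527 none. Clones of a gene were averaged. The 9514 features were fitted by lmFit and eBayes of limma 3.58.1 under R 4.3.3 (genotype and dye as terms, array as a random block), with Benjamini-Hochberg adjustment over all of them and a threshold of 0.05. Tables and plots were made with Python 3.11.15, pandas 2.3.3, numpy 2.4.6 and matplotlib 3.10.9. The fit was tested on simulated data.

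The array pairs were found within each genotype by correlating, over probes, sample 1 minus sample 3 with sample 2 minus sample 4. This correlation was 0.92 to 0.94, so sample 1 was paired with 2 and sample 3 with 4. For wildtype sample 3 and Gja9_null sample 1 the labels name both dyes in different fields, and the label field was used. With 2 arrays per genotype, array and genotype cannot be fully told apart, and the number of arrays limits the precision. Replicate numbers only name samples within a genotype, and no source says that equal numbers mark a shared litter or day.

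The members, gene lists and settings were chosen with earlier results of these data known. One symbol prefix of the rule, which gave no member, is not reported here. Named members are the 3 of smallest p per group and comparison, those with the largest difference in each direction, those with 3 or more clones or the most discordant clones, and a list of well-studied pathway genes; others are said to be named after their values were seen. Promoters are from RefSeq. The alternatives varied the array block, dye term, centring, filter, clones, prior and samples.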

Additional observations from a re-analysis of the deposited data

Results flagged for a closer look

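In 237 groups of 4 samples, the gap of an outermost sample to its nearest neighbour was divided by the range of the group. This ratio exceeded Dixon's critical value for 4 samples in 5 groups (2.11%). The chance rate of about 1 in 20 holds for 4 independent samples. The 4 samples of a genotype lie on 2 arrays and are not independent, so the 2.11% cannot be compared with that rate. Psme3ip1 was far from the other wildtype samples in sample 4, at -1.34. Rnf181 was far from the other Gja9_null samples in sample 2, at -1.27. Rnf11 was lowest in Gja9_het sample 2, at -0.11, and without any overlap with the other genotypes. Ube2d3 was apart in wildtype sample 2, at -0.085. The median deviation of the conjugating group was apart in Gja9_het sample 3, at 0.11.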

How the results depend on the processing

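No member passed the threshold in any comparison in the limma fits, except as follows. Without the array block 24 members passed between Gja9_null and wildtype brains, 34 between Gja9_null and Gja9_het, 1 between Gja9_het and wildtype and 29 by the F-test, where 15.4%, 22.3%, 0.736% and 21% of all features did; with samples paired into arrays the crossed way, 130, 145, 90 and 161, where 74.9%, 79.3%, 60.4% and 90.3% did. Local centring gave 2 between Gja9_null and Gja9_het and 1 by the F-test, where 1.41% and 0.883% of all features passed, and with array means as well 0. Between Gja9_null and wildtype brains the proteasome median was 0.065 with median centring, 0.064 with quantile normalization, 0.13 with local centring (also with array means, a setting chosen after seeing the data) and 0.096 without the first Gja9_null array. The conjugating median was 0.12 with either form of local centring. The ligase median was -0.036, -0.0044 and 0.034 with median, quantile and local centring (0.034 with array means too) and -0.012 with 1 clone per gene. The deubiquitinase median was -0.16 with quantile normalization and -0.14 with both forms of local centring. Between Gja9_null and Gja9_het brains, under median centring, quantile normalization and both forms of local centring, the proteasome median was 0.015, 0.023 and 0.17, the ligase median -0.052, -0.027 and -0.026 and the deubiquitinase median -0.31, -0.20 and -0.14. Without the first Gja9_null array the proteasome was at 0.078 and the deubiquitinases at -0.27, and without the dimmest 25% of probes the deubiquitinases were at -0.31. The conjugating median there was 0.083 with both forms of local centring and 0.11 with 1 clone per gene. Between Gja9_het and wildtype brains the conjugating median was -0.064 without the dimmest probes and -0.18 with 1 clone per gene, and the ligase median -0.054 with quantile normalization. Uba6 turned to 0.25 between Gja9_null and Gja9_het brains with 1 clone per gene. The causes were not tested. Leaving out each sample in turn gave 0 members in every comparison, and deubiquitinase medians of -0.35 to -0.26 between Gja9_null and wildtype brains and -0.44 to -0.37 between Gja9_null and Gja9_het. With the replicate number as a block 0 members passed in any comparison and the medians were as without it, -0.31 for the deubiquitinases between Gja9_null and wildtype brains.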
